A study of Mus musculus with 6 samples.

Results

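The cell cycle machinery of mouse embryonic stem (ES) cells was described through 42 genes that drive the G1/S transition, copy DNA and carry out mitosis. The genes were taken from a list of names, matched to probe sets that the array's annotation gives to 1 gene. Of the 42 genes, 41 had such a probe set, out of 19938 genes with a 1-symbol probe set in the series, and all 41 passed the filter on low values. No such probe set was found here for Ccnb1, the mitotic cyclin B1, and it is not analysed here. Expression was measured on 6 Affymetrix Mouse Gene 1.0 ST arrays, which read each transcript with many short probes grouped into probe sets. The arrays fall into 2 lines, with 3 arrays each. The Hira-null line is the ES cell clone Cl34, with genotype Hira-/-, and the wild-type (WT) line is its parent, w9.5. Both lines were grown undifferentiated in serum with the LIF supplement ESGRO, and Hira encodes a chaperone that places histone H3.3 outside DNA replication. Degrees of confluence at harvest differed by design, and the labels tie none to an array. Because Cl34 is 1 clone, loss of Hira and any other difference between the lines cannot be told apart.

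Dividing cells pass through the same order of events. D-type cyclins with CDK4, then E-type cyclins with CDK2, release E2F factors, which switch on genes for DNA replication. In G1, CDC6 and CDT1 load the MCM helicase on origins while geminin later blocks reloading, and the mitotic kinases CDK1, PLK1 and the Aurora kinases then drive chromosome segregation. Mouse ES cells divide fast, with a short G1 phase, and keep much of this machinery on through the whole cycle.

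The values are deposited log2 levels, and a difference is Hira-null minus WT on that scale, so that 1 unit is 2-fold. Array medians lay between 4.93 and 5.02. Hira read 7.40, 7.05 and 6.81 in Hira-null arrays, against 7.49, 7.86 and 7.83 in WT arrays, with no overlap. Its difference of -0.64 (SE 0.19) did not pass the test (limma, adjusted p = 0.352), and the deleted stretch of Hira, which the labels do not name, cannot be set against its probes. All 15 ES cell markers, Pou5f1, Nanog and Sox2 among them, lay above the filter on all 6 arrays. Hira-null replicate 3 stood apart from the rest. It was the lowest of the 6 arrays for 26.0% of the 15199 genes tested and the highest for 24.6%.

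Between the lines, none of the 41 genes passed the test. With limma and Benjamini-Hochberg adjustment over 25142 probe sets, 0 members were lower and 0 higher, where 0.00398% of all probe sets were called lower and 0.0% higher. The smallest adjusted p among the members was 0.233. At an unadjusted p under 0.05, 4 members were lower (9.76%), against 6.29% of all genes, and 2 were higher (4.88%), against 4.17%. All 4 lower members, Cdt1, Tk1, Aurkb and Top2a, lie on chromosomes 8 and 11, and the 2 higher ones are Mybl2 and Cdk4. The arrays of the lines did not overlap for 7 members that were lower in Hira-null arrays (17.1%, against 9.55% of all genes) and 2 that were higher (4.88%, against 7.8%). The median difference over the 41 members was -0.14, beside -0.01 over all genes tested, with 29 members below 0 and 11 above (50.8% of all genes were below 0). Without Hira-null replicate 3 the median was 0.05, with 18 members below 0 and 23 above. In that fit 2 of 41 members were lower and 3 higher at an unadjusted p under 0.05 (limma), against 984 and 628 of 15199 genes. Without WT replicate 3 there were also 2 lower, and the share over all genes was not computed for that fit. Standard errors of single members ran from 0.13 for Cdk4 to 1.09 for Myc, so intervals were wide for the genes that varied most within a line.

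**Figure D1:**
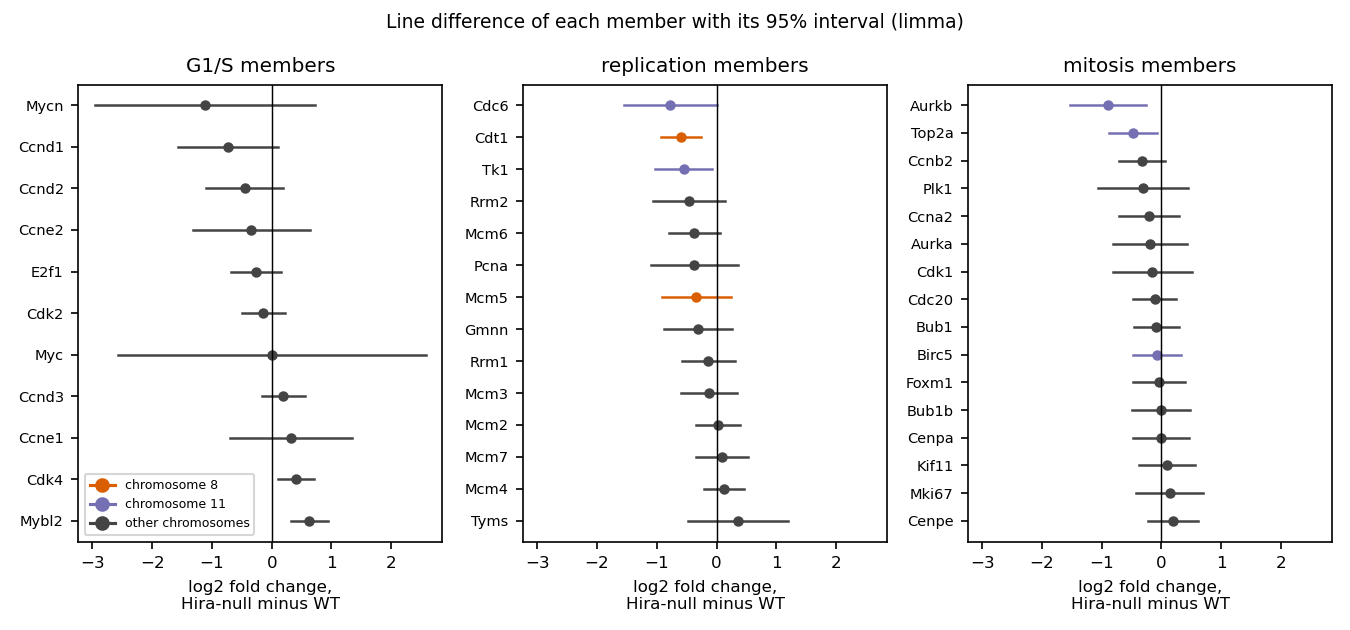
Difference of each of the 41 members between the lines (log2 fold change, Hira-null minus WT, x axis) with its 95% interval from limma, in 3 panels for G1/S, replication and mitosis members, coloured by chromosome. Points range from -1.12 for Mycn to 0.63 for Mybl2, and the intervals of Cdt1, Tk1, Aurkb and Top2a lie below 0 while those of Mybl2 and Cdk4 lie above it.

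The 11 G1/S genes had a median difference of -0.14, and of 0.07 without Hira-null replicate 3. Among them, Mybl2 and Cdk4 were the members whose lines did not overlap, both higher in Hira-null arrays. Mybl2 encodes B-MYB, a transcription factor that E2F switches on at G1/S and that helps turn on mitotic genes. It read 10.19, 9.94 and 10.09 in Hira-null arrays, against 9.33, 9.53 and 9.47 in WT arrays. Every Hira-null array lay above every WT array, by at least 0.41, and the spread within a line was at most 0.25. The difference was 0.63 (SE 0.13), or 1.55-fold higher, and it did not pass over all probe sets (limma, adjusted p = 0.233). It lay between 0.57 and 0.70 when any array was left out.

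Cdk4, the partner kinase of the D-type cyclins, read 11.02, 11.10 and 10.91 in Hira-null arrays, against 10.51, 10.58 and 10.72 in WT arrays. The lines did not overlap here either, and the difference of 0.41 (SE 0.13) was 1.33-fold (limma, adjusted p = 0.370). Cdk2, which pairs with the E-type cyclins, averaged 8.67 ± 0.18 in Hira-null arrays and 8.81 ± 0.16 in WT arrays (SD, n = 3 each). E2f1, a founding member of the E2F activators, averaged 6.95 ± 0.26 in Hira-null arrays and 7.21 ± 0.17 in WT arrays, and neither gene separated the lines.

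The 3 D-type cyclins, which carry growth signals to CDK4, did not all lean one way. Ccnd1 read 8.40, 8.39 and 7.21 in Hira-null arrays, against 8.33, 8.87 and 8.98 in WT arrays. Its difference was -0.73 (SE 0.35, limma adjusted p = 0.552), and -0.33 without Hira-null replicate 3, the low array. Ccnd2 stood at -0.45 (SE 0.27) and at -0.15 without that array. Ccnd3 stood at 0.20 (SE 0.15). The E-type cyclins, which fire CDK2 at the end of G1, were uneven within the lines. Ccne1 read 9.72, 9.77 and 8.29 in Hira-null arrays, against 8.42, 9.20 and 9.21 in WT arrays. The lowest array of each line was thus far below the other 2 arrays of that line, and the difference of 0.32 (SE 0.43) became 0.80 (SE 0.27) without Hira-null replicate 3. Ccne2 read 5.98, 5.18 and 4.36 in Hira-null arrays, against 5.15, 5.98 and 5.41 in WT arrays, with a difference of -0.34 (SE 0.41) that turned to 0.07 without that array.

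Myc and Mycn, growth-promoting transcription factors that act in ES cell self-renewal, had the widest ranges within a line among the members. Myc read 8.39, 7.81 and 4.68 in Hira-null arrays, against 5.42, 8.35 and 7.11 in WT arrays. The means of the lines were equal at 6.96, with a standard error of 1.09 for the difference and a 95% interval from -2.58 to 2.58. The highest and lowest Hira-null arrays were 13.1-fold apart. Mycn read 8.92, 8.78 and 5.85 in Hira-null arrays, against 8.68, 9.29 and 8.94 in WT arrays. Hira-null replicate 3 was low for both genes, and WT replicate 1 was low for Myc and within 0.61 of the other WT arrays for Mycn. The line difference of Mycn was -1.12 (SE 0.78, limma adjusted p = 0.708), and it shrank to -0.12 (SE 0.20) without Hira-null replicate 3.

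**Figure D2:**
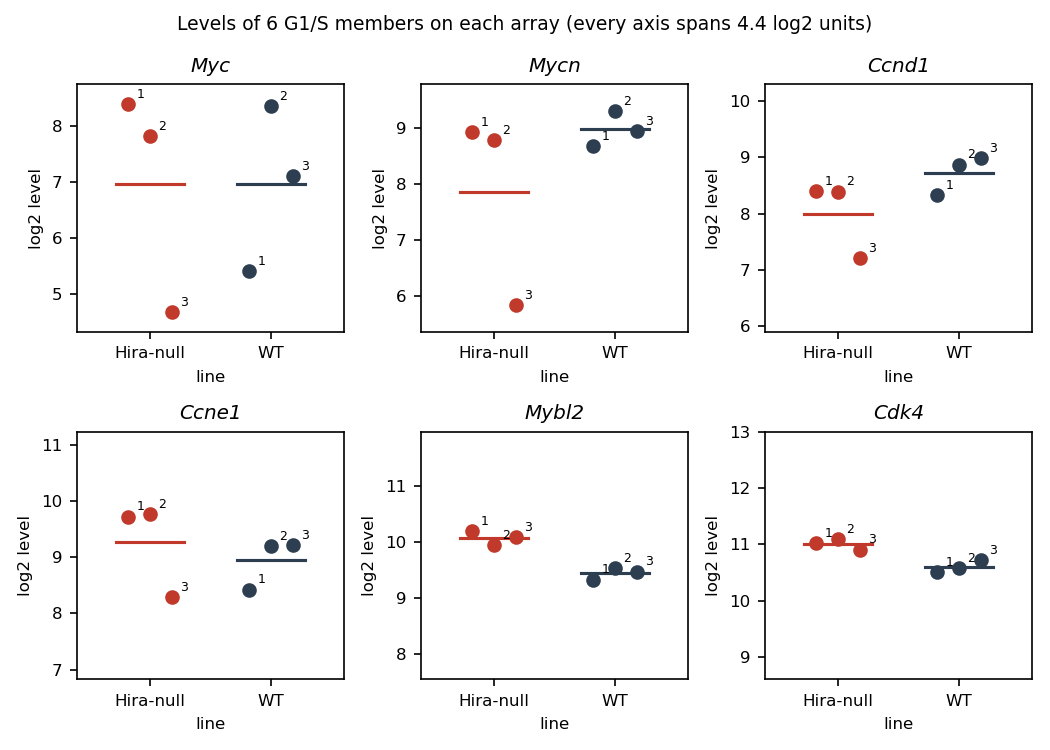
Deposited log2 level (y axis, the same span in every panel) of Myc, Mycn, Ccnd1, Ccne1, Mybl2 and Cdk4 on each array, with Hira-null arrays on the left and WT arrays on the right of each panel, the replicate number beside each point and a bar at the mean of the 3 arrays. Myc spans 4.68 to 8.39 in Hira-null arrays and 5.42 to 8.35 in WT arrays, while the Hira-null and WT points of Mybl2 and Cdk4 do not overlap.

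The 14 replication genes leaned lower in Hira-null arrays, with a median difference of -0.33, 10 members below 0 and 4 above. The median moved to -0.04 without Hira-null replicate 3, which was the lowest array for 11 of the 14. Over the 10 replication members outside chromosomes 8 and 11 the median was -0.13. Cdt1, which loads the MCM helicase on origins, read 8.68, 8.76 and 8.45 in Hira-null arrays, against 9.22, 9.10 and 9.34 in WT arrays. All Hira-null arrays lay below all WT arrays, and the difference of -0.59 (SE 0.14, limma adjusted p = 0.257) was 1.51-fold lower. Its partner in loading, Cdc6, read 7.44, 7.34 and 6.26 in Hira-null arrays, against 7.47, 7.92 and 7.98 in WT arrays. These arrays did not overlap by the narrow margin of 0.03, and the difference of -0.78 (SE 0.33, limma adjusted p = 0.495) was -0.40 without Hira-null replicate 3. Gmnn, which encodes geminin, the inhibitor of CDT1, stood at -0.32 (SE 0.24), overlapped between the lines and was -0.055 without Hira-null replicate 3.

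The 6 subunits of the MCM helicase, the ring that unwinds DNA at the fork, had differences on both sides of 0. Mcm2, Mcm4 and Mcm7 had differences of 0.02, 0.12 and 0.09, and Mcm3, Mcm5 and Mcm6 had -0.12, -0.34 and -0.37. Without Hira-null replicate 3, Mcm3 turned to 0.08, and Mcm5 and Mcm6 were at -0.14 and -0.19. Mcm6 read 9.83, 9.80 and 9.27 in Hira-null arrays, against 9.95, 9.96 and 10.10 in WT arrays, so its lines did not overlap (SE 0.18, limma adjusted p = 0.551). Mcm5, on chromosome 8, read 9.88, 9.81 and 9.23 in Hira-null arrays, against 9.58, 10.16 and 10.21 in WT arrays, and the lines overlapped. Set against the mean of the other arrays of the line, the 6 subunits deviated by -0.62 to -0.31 in Hira-null replicate 3 and by -0.61 to -0.08 in WT replicate 1.

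Genes of the nucleotide supply for DNA did not share a direction. Rrm2, the S-phase subunit of ribonucleotide reductase, read 9.05, 9.15 and 8.20 in Hira-null arrays, against 9.28, 9.20 and 9.29 in WT arrays. The lines did not overlap, by 0.05, and the difference of -0.46 (SE 0.25, limma adjusted p = 0.620) was -0.16 without Hira-null replicate 3. Its partner subunit Rrm1 stood at -0.14 (SE 0.19), and at 0.05 without that array. Tyms, thymidylate synthase, read 8.13, 8.07 and 7.39 in Hira-null arrays, against 6.76, 7.92 and 7.83 in WT arrays. WT replicate 1 was the low array of its line, and the difference of 0.36 (SE 0.35) was -0.012 without it. Pcna, the sliding clamp of the replication fork, stood at -0.37 (SE 0.31), and its 3 Hira-null arrays read 10.79, 10.61 and 9.67, the last being replicate 3, without which the difference was -0.03. A further Pcna probe set gave -0.36, with the same reading on every array but WT replicate 1 (10.42 against 10.44). Of its 6 nearest identifiers with 1 gene, 5 belong to chromosome 19, while Pcna lies on chromosome 2. It is thus not a separate reading, and signal from a near-identical copy was not separated here.

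Tk1, thymidine kinase of the salvage pathway, was read by 2 probe sets. Probe set 10582809 read 7.44, 7.87 and 7.20 in Hira-null arrays, against 7.86, 8.07 and 8.23 in WT arrays, and the lines overlapped by 0.01 (difference -0.55, SE 0.20, limma adjusted p = 0.418). Probe set 10393431 read 6.92, 7.05 and 6.49 in Hira-null arrays, against 7.19, 7.64 and 7.76 in WT arrays, without overlap (difference -0.71, SE 0.21, limma adjusted p = 0.352). Both thus leaned the same way. The annotation gives both to Tk1 on chromosome 11. All 6 of the nearest identifiers around 10582809 with 1 gene, however, belong to chromosome 8, so signal from a near-identical copy was not separated here.

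The 16 mitosis genes measured had a median difference of -0.10, with 13 below 0 and 3 above. Without Hira-null replicate 3 the median was 0.07, with 5 below 0 and 11 above. Aurkb, the kinase of the chromosomal passenger complex that corrects faulty spindle attachments, had the largest difference of the class. It read 8.42, 8.69 and 7.81 in Hira-null arrays, against 9.51, 8.86 and 9.23 in WT arrays. The lines did not overlap, and the difference of -0.89 (SE 0.27, limma adjusted p = 0.350) was 1.86-fold lower. It was -0.65 without Hira-null replicate 3, and -0.49 without both that array and WT replicate 1. Top2a, the topoisomerase that untangles sister chromatids, read 10.30, 10.40 and 9.97 in Hira-null arrays, against 10.90, 10.52 and 10.69 in WT arrays, again without overlap. Its difference was -0.48 (SE 0.17, limma adjusted p = 0.409). It was -0.35 without Hira-null replicate 3, and -0.255 without both that array and WT replicate 1. A further Top2a probe set, with levels of 4.39 to 5.08, gave -0.17. Birc5, which encodes survivin of the same passenger complex, read 8.04, 8.17 and 7.82 in Hira-null arrays, against 7.82, 8.13 and 8.29 in WT arrays. Its lines overlapped, with a difference of -0.07 (SE 0.17).

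Ccnb2, Cdk1, Plk1, Ccna2 and Aurka, further kinases and cyclins of mitosis, had differences of -0.32 to -0.15. Ccnb2, cyclin B2, read 9.85, 9.80 and 9.68 in Hira-null arrays, against 10.40, 9.93 and 9.96 in WT arrays, without overlap (difference -0.32, SE 0.16, limma adjusted p = 0.579). WT replicate 1 was the high array, and without both it and Hira-null replicate 3 the difference was -0.12. Cdk1, the mitotic kinase, read 9.59, 9.64 and 8.59 in Hira-null arrays, against 9.48, 9.35 and 9.44 in WT arrays. Plk1, a kinase of mitotic entry and spindle assembly, read 9.46, 9.51 and 8.34 in Hira-null arrays, against 9.54, 9.24 and 9.45 in WT arrays. Hira-null replicate 3 was the low array for both. The differences were -0.15 (SE 0.28) for Cdk1 and -0.31 (SE 0.32) for Plk1, and without that array they turned to 0.19 and 0.07. Ccna2, cyclin A2, and Aurka, the centrosomal Aurora kinase, gave -0.21 and -0.19, and without Hira-null replicate 3 they turned to 0.03 and 0.12. Each was nearly constant in WT arrays, with ranges of 0.04 and 0.03.

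The spindle checkpoint, centromere and spindle motor genes lay near 0 with all arrays in the fit. Bub1 and Bub1b, checkpoint kinases at the kinetochore, stood at -0.08 (SE 0.16) and -0.01 (SE 0.20), and Cdc20, the activator of the anaphase-promoting complex, at -0.11 (SE 0.15). Cenpa, the centromeric histone variant, averaged 8.61 ± 0.36 in Hira-null arrays and 8.62 ± 0.13 in WT arrays (SD, n = 3 each), a difference of 0.00 with a 95% interval from -0.47 to 0.47. Kinesins Cenpe and Kif11 stood at 0.19 (SE 0.18) and 0.09 (SE 0.20). The proliferation marker Mki67 stood at 0.14 (SE 0.24) and Foxm1, a transcription factor of G2/M genes, at -0.05 (SE 0.18). With all arrays, the intervals of these 8 genes include 0, and the widest, that of Mki67, ran from -0.42 to 0.69. Without Hira-null replicate 3 the differences were 0.33 for Mki67, 0.295 for Kif11, 0.27 for Cenpe and 0.19 for both Cenpa and Bub1b. Foxm1, Cdc20 and Bub1 then stood at 0.06, -0.01 and -0.085. Leaving out WT replicate 1 as well gave 0.515 for Mki67, 0.385 for Cenpe, 0.27 for Bub1b, 0.255 for Cenpa and 0.22 for Kif11. Foxm1, Bub1 and Cdc20 were at 0.12, 0.06 and -0.04 in that fit.

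**Figure D3:**
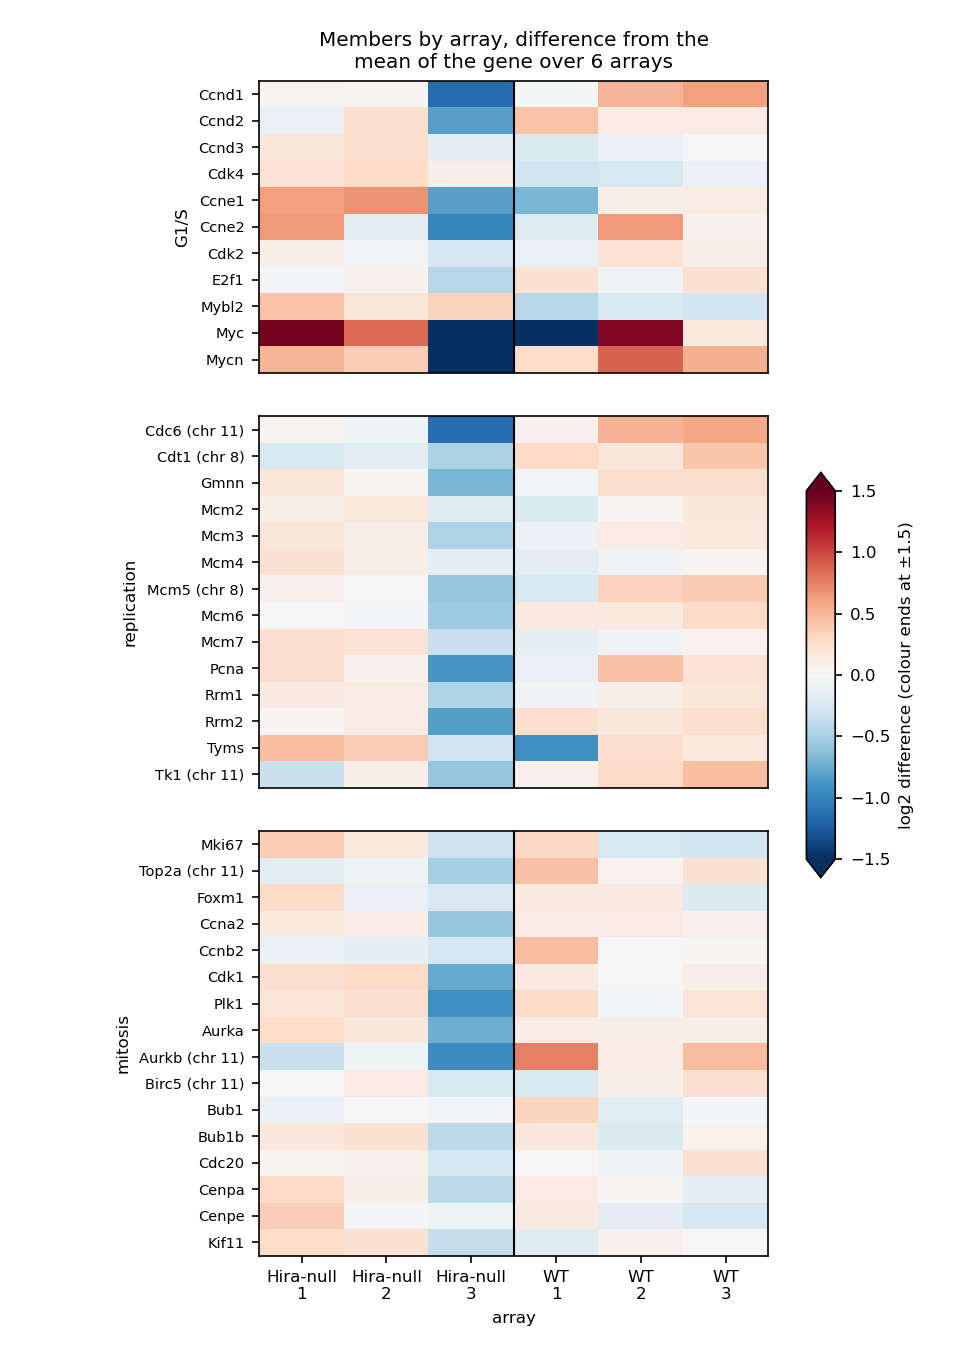
Each of the 41 members (rows, in 3 blocks for G1/S, replication and mitosis) on each array (columns, Hira-null on the left and WT on the right), as the log2 difference from the mean of that gene over the 6 arrays, red above and blue below, with members of chromosomes 8 and 11 marked. The column of Hira-null replicate 3 is blue in most rows, and Mybl2 and Cdk4 are red in it.

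The sequence upstream of the genes, which their choice did not use, was described by class. RefSeq promoter sequences of the build GRCm38.p6 matched 32 of the 41 members and 11996 of the genes tested, and the 250 bases before the start were searched on both strands. The members not matched are Aurkb, Ccna2, Ccnd1, Ccnd2, Ccne2, Foxm1, Gmnn, Mcm4 and Myc. The motifs searched were TTTCCCGC and TTTGGCGC, forms of the E2F site, TTTGAA, the core of the cell cycle genes homology region (CHR), and CCAAT. None of these contains another on either strand. Either E2F form was found in 4 of 12 replication promoters (33.3%), 2 of 7 G1/S promoters (28.6%) and 0 of 13 mitosis promoters (0.0%), against 2.38% of all. The CHR core was found in 6 of 13 mitosis promoters (46.2%), 1 of 12 replication promoters (8.33%) and 1 of 7 G1/S promoters (14.3%), against 10.6% of all. CCAAT was found in 12 of 13 mitosis promoters (92.3%), 8 of 12 replication promoters (66.7%) and 1 of 7 G1/S promoters (14.3%), against 35.5% of all. A match describes these letters only and was not tested as a binding site.

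Stretches upstream of 6 members are shown because they set the motif content of both classes beside the line difference. They are Mcm5 and Mcm6 with E2F forms, Top2a and Ccnb2 with CCAAT and CHR letters, and Cdt1 and Birc5, which have none of these. Each runs 5′ to 3′ on the strand of the gene and ends just before its annotated span, overlaps no annotated gene, and has matches in capitals. They lie at chr8:75109259-75109467 (plus strand) for Mcm5, chr1:128359706-128359955 (minus) for Mcm6, chr11:99024200-99024439 (minus) for Top2a, chr9:70421555-70421804 (minus) for Ccnb2, chr8:122567765-122568014 (plus) for Cdt1 and chr11:117848987-117849236 (plus) for Birc5, in GRCm38.p6.
Mcm5: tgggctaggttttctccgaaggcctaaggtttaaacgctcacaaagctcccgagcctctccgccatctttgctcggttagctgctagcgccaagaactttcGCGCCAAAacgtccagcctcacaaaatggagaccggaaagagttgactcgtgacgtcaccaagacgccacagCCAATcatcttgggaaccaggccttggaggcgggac
Mcm6: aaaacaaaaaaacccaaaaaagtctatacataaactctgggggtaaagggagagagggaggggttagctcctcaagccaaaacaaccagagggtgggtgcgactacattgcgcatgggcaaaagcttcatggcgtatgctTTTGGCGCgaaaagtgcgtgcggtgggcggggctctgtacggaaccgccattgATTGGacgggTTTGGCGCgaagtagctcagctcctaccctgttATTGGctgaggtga
Top2a: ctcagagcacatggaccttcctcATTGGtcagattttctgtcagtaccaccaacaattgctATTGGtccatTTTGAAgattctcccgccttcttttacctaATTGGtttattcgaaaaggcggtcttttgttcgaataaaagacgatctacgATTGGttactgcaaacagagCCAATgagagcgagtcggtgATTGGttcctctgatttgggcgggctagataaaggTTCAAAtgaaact
Ccnb2: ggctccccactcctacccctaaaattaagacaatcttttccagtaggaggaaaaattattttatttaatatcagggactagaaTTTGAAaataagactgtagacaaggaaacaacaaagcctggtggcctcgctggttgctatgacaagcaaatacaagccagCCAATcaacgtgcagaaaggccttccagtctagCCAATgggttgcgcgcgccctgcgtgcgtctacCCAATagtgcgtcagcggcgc
Cdt1: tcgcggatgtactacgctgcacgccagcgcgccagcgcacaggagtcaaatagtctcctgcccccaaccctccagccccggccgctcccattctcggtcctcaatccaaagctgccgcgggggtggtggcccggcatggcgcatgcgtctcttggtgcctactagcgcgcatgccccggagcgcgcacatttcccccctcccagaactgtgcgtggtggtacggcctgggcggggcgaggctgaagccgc
Birc5: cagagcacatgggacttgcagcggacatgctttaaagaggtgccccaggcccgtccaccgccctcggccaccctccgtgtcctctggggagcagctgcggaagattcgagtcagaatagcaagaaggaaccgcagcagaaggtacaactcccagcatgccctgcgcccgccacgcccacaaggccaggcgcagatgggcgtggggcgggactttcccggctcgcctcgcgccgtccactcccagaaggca
Mcm6 holds 2 copies of TTTGGCGC and Mcm5 holds 1, on the opposite strand. They also hold 2 CCAAT matches and 1. Top2a holds 6 CCAAT matches and 2 CHR cores, and Ccnb2 holds 3 and 1. Cdt1 and Birc5, with no match in these windows, had line differences of -0.59 and -0.07.

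Members were also compared by chromosome. Chromosomes 8 and 11 were set apart because an earlier report gave both as lower, so their lower level was known when they were chosen. As a whole they were lower in the Hira-null line, with a median of -0.25 over 2160 genes against 0.02 over the 13039 genes elsewhere. The 7 members there (Cdt1 and Mcm5 on chromosome 8, Cdc6, Tk1, Top2a, Aurkb and Birc5 on chromosome 11) had differences below 0, as did 82.1% of all genes of these chromosomes. Those of Mcm5, Tk1 and Birc5 had overlapping lines, and Birc5 turned to 0.025 without Hira-null replicate 3 and to 0.035 without WT replicate 3. Tk1 is represented here by probe set 10582809, whose nearest identifiers belong to chromosome 8. For its other probe set, 10393431, the lines did not overlap (-0.71). The median of the 7 was -0.55, and it stayed between -0.66 and -0.40 when any array was left out. At an unadjusted p under 0.05, 4 of the 7 were lower (57.1%, against 27.7% of genes there) and 0 higher (against 0.556%). Without Hira-null replicate 3 the count was 2 lower, and the share of genes there was not computed for that fit. The lines did not overlap for 4 lower members (57.1%, against 34.0%) and 0 higher ones (against 1.57%). Of the 34 members elsewhere, 0 were lower at that level (against 2.74%), by limma with 0 at an adjusted p, and 2 were higher (5.88%, against 4.77%). Among the 34, the lines did not overlap for 3 lower members (8.82%, against 5.5%) and 2 higher ones (5.88%, against 8.84%), and 22 of the 34 were below 0, where 45.6% of genes elsewhere were. The median of those 34 was -0.12, and it was 0.08 without Hira-null replicate 3.

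Set against its own chromosome, each of these members except Birc5 lay below the chromosome's median. Relative to a median of -0.24 on chromosome 11, Aurkb was lower by a further 0.65, Cdc6 by 0.53, Tk1 by 0.31 and Top2a by 0.24, and Birc5 was 0.17 above. Aurkb lay at percentile 2.37 of the genes of the chromosome, Cdc6 at percentile 3.63 and Birc5 at percentile 74.2. Relative to a median of -0.27 on chromosome 8, Cdt1 was lower by a further 0.32 and Mcm5 by 0.07. With these chromosome medians taken off, the median of the 7 was -0.31. These values use all 6 arrays. Without Hira-null replicate 3 the differences, with no chromosome median taken off, were -0.65 for Aurkb, -0.50 for Cdt1 and -0.35 for Top2a. Cdc6 and Tk1 then stood at -0.40, Mcm5 at -0.14 and Birc5 at 0.025. The median of the 7 was -0.40 in that fit, against -0.55 on all arrays. How far the lower level of these chromosomes accounts for the members' values was not tested.

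**Figure D4:**
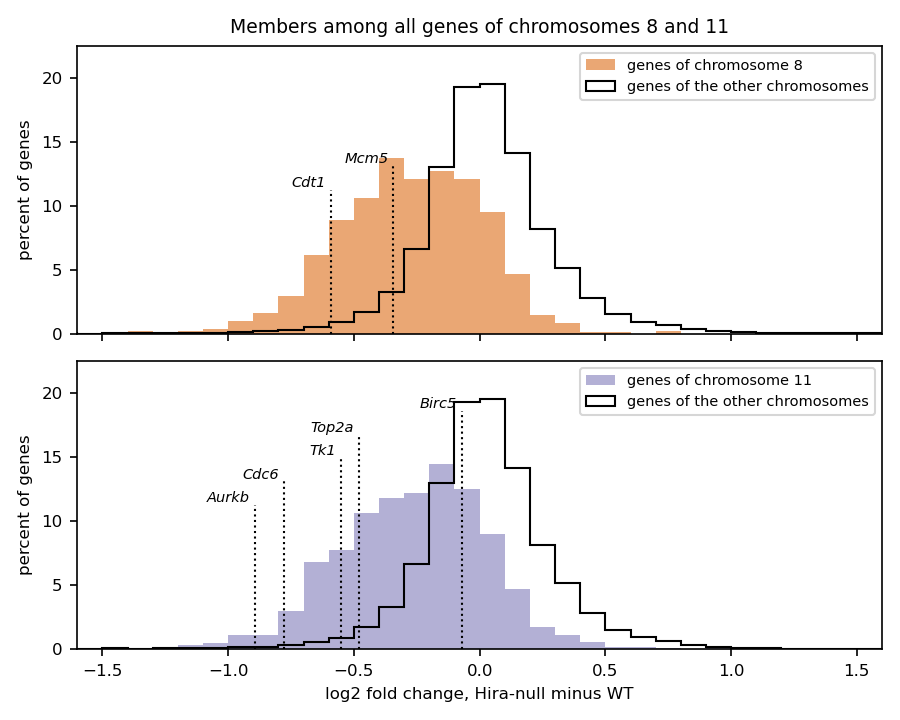
Share of genes (y axis, percent) by log2 fold change, Hira-null minus WT (x axis), for chromosome 8 (upper panel) and chromosome 11 (lower panel) as filled bars, with genes of the other chromosomes as an outline and dotted lines at the members. The filled bars are shifted to the left, with medians of -0.27 and -0.24, and 6 of the 7 members lie left of the median of their chromosome.

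Arrays also differed within a line. Hira-null replicate 3 was the lowest of the 6 arrays for 32 of 41 members (78.0%), against 26.0% of all genes, and it was the highest for 0 members, against 24.6%. The count was 8 of 11 for G1/S, 11 of 14 for replication and 13 of 16 for mitosis. In this array 25 members lay more than 0.5 below the mean of the other Hira-null arrays (61.0%), against 11.4% of all genes. The deviation from that mean was -3.42 for Myc, -3.0 for Mycn, -1.46 for Ccne1, -1.22 for Ccne2, -1.19 for Ccnd1, -1.15 for Plk1, -1.13 for Cdc6 and -1.03 for both Pcna and Cdk1. Mybl2 at 0.025 and Bub1 at 0.005 were the 2 members not below it. Medians of the deviation from the gene mean in Hira-null replicates 1 to 3 were 0.21, 0.25 and -0.81 for G1/S, 0.11, 0.10 and -0.51 for replication and 0.18, 0.10 and -0.38 for mitosis, where all genes had -0.03, 0.01 and -0.01.

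Within the WT line, replicate 1 had the lowest class median for G1/S and replication members and the highest for mitosis members. It was the lowest of 6 arrays for 3 G1/S, 3 replication and 0 mitosis members (6 of 41, or 14.6%, against 15.2% of all genes). It was the highest for 5 of 16 mitosis members (31.2%, against 18.6%) and 0 of 14 replication members. Set against the mean of the other WT arrays, it deviated by 0.57 for Mki67, 0.47 for Aurkb, 0.46 for Ccnb2 and 0.44 for Bub1, and by -2.31 for Myc, -1.12 for Tyms, -0.79 for Ccne1 and -0.61 for Mcm5. The class medians in WT replicates 1 to 3 were -0.19, 0.12 and 0.11 for G1/S, -0.07, 0.17 and 0.24 for replication and 0.14, 0.01 and 0.07 for mitosis. The range within a line exceeded 1 log2 unit for 11 members (26.8%), against 9.07% of all genes, and 6 of these 11 are G1/S genes. These are single arrays without a replicate of their own, so no test was made.

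**Figure D5:**
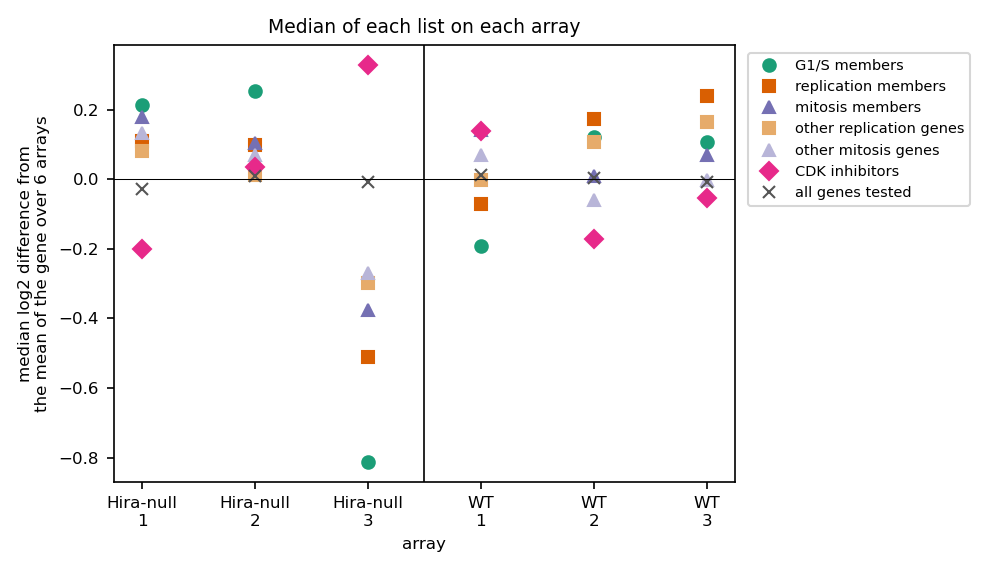
Median over the genes of a list of the log2 difference from the gene mean (y axis) on each array (x axis, Hira-null on the left and WT on the right), for the 3 member classes, other replication and mitosis genes, CDK inhibitors and all genes tested. On Hira-null replicate 3 the member classes lie at -0.81, -0.51 and -0.38 and the CDK inhibitors at 0.33, while all genes lie near 0 on every array.

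Other genes of the same pathways, taken from general lists, gave the wider picture. None passed the test in either direction (limma, adjusted p from 0.220 upward). Of 46 other replication genes, 35 were below 0 (where 50.8% of all genes were), with a median of -0.14. Hira-null replicate 3 was the lowest of 6 arrays for 31 of the 46 (67.4%, against 26.0% of all genes). The median without that array was not computed for this list. At an unadjusted p under 0.05, 6 were lower (13.0%, against 6.29%), 5 of them on chromosomes 8 and 11, and 0 higher (against 4.17%). Pold2, the second subunit of DNA polymerase delta and on chromosome 11, read 8.93, 8.95 and 8.68 in Hira-null arrays, against 10.14, 9.66 and 9.93 in WT arrays. This is 2.08-fold lower without overlap, a difference of -1.06 (SE 0.17, limma adjusted p = 0.220). Its catalytic partner Pold1, on chromosome 7, stood at -0.48 (SE 0.15), the GINS helicase subunit Gins4 at -0.57 (SE 0.17) and the deaminase Dctd at -0.47 (SE 0.11), the last 2 on chromosome 8. For these 4 genes, named for their smallest p in the list, the lines did not overlap. Over the 46 genes that held for 11 lower ones (23.9%, against 9.55% of all genes), 6 of them on chromosomes 8 and 11. It held for 1 higher one (2.17%, against 7.8%).

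Of 76 other mitosis genes, 43 were below 0 and 31 above, with a median of -0.03, and 3 were lower (3.95%, against 6.29% of all genes) and 4 higher (5.26%, against 4.17%) at an unadjusted p under 0.05. Cdc27, a subunit of the anaphase-promoting complex on chromosome 11, stood at -0.58 (SE 0.17), the kinetochore gene Spc24 at -0.40 (SE 0.16), the kinesin Kif15 at 0.36 (SE 0.13) and the cohesin protector Sgo1 at 0.32 (SE 0.13). Of 22 other G1/S regulators, 0 were lower (0.0%, against 6.29% of all genes) and 1 higher (4.55%, against 4.17%) at that level, and the median was -0.05. Fbxw7, which targets cyclin E and MYC for degradation, stood at 0.43 (SE 0.15). Tfdp1, the DNA-binding partner of E2F, stood at -0.30 (SE 0.16), the phosphatase Cdc25a at -0.45 (SE 0.24) and Max, the partner of MYC, at 0.33 (SE 0.18). The other replication and mitosis lists also had their lowest array medians, -0.30 and -0.27, on Hira-null replicate 3.

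CDK inhibitors, which hold the cycle back, had 6 of 8 genes measured and a median difference of 0.14, with 0 at an unadjusted p under 0.05 in limma. Cdkn1b, encoding p27, read 7.04, 7.47 and 7.72 in Hira-null arrays, against 7.17, 6.38 and 7.14 in WT arrays, with a difference of 0.51 (SE 0.27). Cdkn1c, encoding p57, read 7.68, 7.48 and 8.05 in Hira-null arrays, against 7.41, 7.26 and 7.36 in WT arrays, where the lines did not overlap (0.39, SE 0.17). Cdkn2a stood at -0.42 (SE 0.21) and Cdkn3 at 0.25 (SE 0.21). Hira-null replicate 3 had the highest list median, 0.33, and was the highest array for 3 of 6 inhibitors and the lowest for 0.

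Markers of cell state and of other cell types also moved on the arrays where the members moved, and their part in these results was not tested. The summed log2 level of 15 ES cell markers was 143.6 on Hira-null replicate 3 and 144.6 on WT replicate 1, within ranges of 143.6 to 149.6 over Hira-null arrays and 144.6 to 146.7 over WT arrays. Hira-null replicate 3 was the lowest of 6 arrays for 7 of these 15 (46.7%, against 26.0% of all genes). It was the highest for 2 (13.3%, against 24.6%). WT replicate 1 was the lowest for 4 (26.7%, against 15.2%) and the highest for 1 (6.67%, against 18.6%). Within a line, Esrrb (9.96) and Tfcp2l1 (9.22) were highest on Hira-null replicate 3, and Nanog (10.98) and Sox2 (10.19) on WT replicate 1. Of 8 trophectoderm markers, 6 had a probe set, 4 lay above the filter on all arrays and Elf5 and Tpbpa lay below it on all. Their sum ran from 32.1 to 37.8 in Hira-null arrays, highest on replicate 3, and from 33.0 to 35.9 in WT arrays, highest on replicate 1. The keratin genes Krt8 and Krt18 of that list read 10.24 and 10.20 on Hira-null replicate 3 and 9.51 and 9.22 on WT replicate 1, against 7.19 to 8.51 on the other arrays. Cdx2, a defining trophectoderm gene above the filter, read 4.43, 4.58 and 4.64 in Hira-null arrays and 4.32, 4.48 and 4.70 in WT arrays, so it was lowest on WT replicate 1 and highest on WT replicate 3. Of 13 fibroblast markers, 9 lay above the filter and Dcn, Lum, Postn and S100a4 lay below it on all arrays, with sums of 67.4 to 74.8 in Hira-null arrays and 70.8 to 80.0 in WT arrays. Both maxima were again on these 2 arrays. Acta2 read 8.68 on Hira-null replicate 3 and 9.57 on WT replicate 1, and Tagln read 7.39 and 8.94. Not all fibroblast markers followed, since Vim was lowest of the Hira-null arrays on replicate 3 (9.34). Twist2 was lowest of the WT arrays on replicate 1 (4.58). Endoderm markers (10 of 12 above the filter, Afp and Ttr below it on all arrays) summed to 62.0 to 65.2 in Hira-null arrays and 66.2 to 70.4 in WT arrays. The highest endoderm sum of each line was also on Hira-null replicate 3 and WT replicate 1, though Sox7 was lowest of its line on both (4.96 and 5.03). Mesoderm markers (7 of 8 with a probe set, all above the filter) summed to 33.6 to 34.7 in Hira-null arrays and 32.9 to 34.7 in WT arrays, and neuroectoderm markers (5 of 7 above it on all arrays, Zic1 below it on all) to 34.2 to 37.1 in Hira-null arrays and 37.2 to 39.1 in WT arrays. In such bulk RNA, fewer dividing cells and less of these transcripts per cell cannot be told apart.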

How the data were processed

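The authors deposited log2 expression of 35557 probe sets, made with GCRMA, a background correction and normalization method, per the submitters' processing notes. The sources used here do not give its version, a genome build or how summaries were made. That the scale is log2 rests on the range of the values, 1.14 to 14.03, which were taken as deposited. Normalization of this kind makes the arrays' distributions alike, which would hide a shift common to nearly all genes.

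Symbols came from the platform's probe table (21789 probe sets with 1 symbol, 1621 with several, 12147 unnamed), of which 21698 were matched by Entrez identifier to RefSeq genes of GRCm38.p6. Probe sets above 3.78, the 30th percentile, on at least 3 of the 6 arrays were kept (25142). Each gene took the probe set of highest mean. Hira-null minus WT was fitted on the 6 arrays by limma 3.58.1 under R 4.3.3 (lmFit, then eBayes), and p-values were two-sided and adjusted by Benjamini-Hochberg across the kept probe sets. The procedure was tested on simulated data. Values on every array are given for the members on chromosomes 8 and 11, those whose lines do not overlap, and in each class the 3 with the smallest p and the 2 most variable within a line. Further lists name their 4 genes of smallest p. Other members shown by array, and the promoters of Mcm6 and Ccnb2, were picked after their values were seen. Members, lists and the chromosomes set apart were chosen with earlier results of these data known. The labels call the replicates biological, without saying how independent the cultures were. Because confluence at harvest differed by design, the spread within a line may include culture state as well as technical spread. The p-values rest on that spread between arrays of a line and do not measure spread between clones. The number of arrays limits the precision (median SE 0.17). Alternatives were other filters and scalings, eBayes settings, arrayWeights, the replicate number as a block, arrays left out, mean probe sets and chromosome-centred values.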

Additional observations from a re-analysis of the deposited data

How the results depend on the processing

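With limma, 0 of 41 members passed the adjusted threshold under any alternative run, and adjusted p of the named members ran from 0.138 to 1. The count of called probe sets was 1 and changed to 5 with arrayWeights, 2 with the filter at the 50th percentile, 2 with median centring, 0 with the replicate block and 0 with Hira-null replicate 3 and WT replicate 1 both left out. Leaving out 1 array gave 0, except for 41 without Hira-null replicate 2. Members lower at an unadjusted p under 0.05 numbered 2 to 6 with 1 array left out (2 without Hira-null replicate 3 or WT replicate 3, against 4), and higher ones 2 to 3. The share over all genes was not computed for each of these fits. With Hira-null replicate 3 and WT replicate 1 both left out there were 4 lower and 4 higher, against 988 and 688 of 15199 genes. The mitosis median was then 0.125. With 1 array left out the medians were -0.47 to -0.041 for replication, -0.34 to 0.07 for G1/S and -0.18 to 0.07 for mitosis. The median of members on chromosomes 8 and 11 was -0.31 with chromosome medians taken off. The cause of these moves was not tested. Direction turned for Cdk1 with arrayWeights (0.07), and for Cdk1 and Plk1 when both of those arrays were left out (0.22 and 0.14). With 1 array left out the ranges were -0.33 to 0.19 for Cdk1, -0.51 to 0.07 for Plk1, -0.20 to 0.035 for Birc5, -0.012 to 0.60 for Tyms and -0.77 to 1.14 for Myc. Mybl2, Cdk4, Cdt1, Aurkb, Top2a, Tk1 and Cdc6 kept their direction under every alternative run. So did Ccnd1, Ccnb2, Mcm5, Mcm6, Rrm2 and Mycn, the last at -1.655 to -0.12 with 1 array left out. The number of members lowest on Hira-null replicate 3 was 31 with quantile normalization and 32 with median centring, and the number with a range over 1 log2 unit within a line was 10 and 12, all chosen after seeing the data. The labels do not say whether equal replicate numbers pair the arrays. Same-numbered deviations correlated at -0.34, 0.17 and -0.10, and those of unequal number at -0.41 to 0.44. Deviations from a mean of 3 arrays constrain each other, so these values cannot settle pairing. With the replicate block 0 members passed, as without it.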
